A study of Mus musculus with 12 samples.

Results

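The chemokine system of the mouse liver, its ligands and their receptors, was followed across 2 strains and 2 diets. Its members were the rows of the deposited count table whose gene symbol names a CC, CXC, C or CX3C chemokine, a receptor for one, or an atypical chemokine receptor. Of the 24421 genes in the table, 63 had such a symbol, and 53 of them, 34 ligands and 19 receptors, had a summed count of at least 10 over the 12 libraries. The 10 left out were Ccr4 (summed count 6.59), Ccr3 (5), Cxcr1 (4), Ccr8 (4), Ccl1 (3), Ccl11 (3), Cxcl3 (3), Ccr1l1 (1), Cxcl15 (0.05) and Ccl26 (0). The members nearest the minimum were Ccl12 and Ccl17, with a summed count of 13 each, and Cxcl17 with 14.

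Poly(A) mRNA was sequenced from tumour-free liver of male mice aged 4 months. The 4 groups, with 3 mice and 3 libraries each, were LiKM mice on ACR, LiKM mice fed the normal diet, LiK mice on ACR and LiK mice fed the normal diet. ACR, which stands here for the acyclic retinoid tested in the study, made up 0.06% of the diet from 5 weeks of age. The labels do not spell out the alleles behind the strain names. From what is known of the study, LiKM mice are meant to have lost Mdm2, which marks p53 for degradation, in their hepatocytes, and LiK mice to have kept it. Neither the labels nor the files name the Cre driver or the strain background.

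Chemokines are small secreted or membrane-tethered proteins that guide leukocytes along concentration gradients. They bind receptors that span the membrane several times and signal through inhibitory G proteins, whereas atypical receptors take chemokines up without that signal and thereby remove them. Inflammatory chemokines are induced in many cell types by cytokines that act through NF-kB or interferon pathways, and homeostatic ones place lymphocytes in tissue. In the liver, hepatocytes, bile duct cells, endothelium, stellate cells and macrophages make ligands, and most of the receptors are carried by leukocytes.

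Promoter sequence is shown for 6 ligands because their transcripts are among those with the largest strain differences described here, or because their promoters hold a match to a motif of a chemokine inducer. The letters GGG, any 3 bases and TTCC were searched for NF-kB, and GAAA, any 2 bases and GAAA for the interferon response element (ISRE), on both strands of the 300 bases around the start of 32851 RefSeq transcripts of build GRCm38.p6. These searches and the choice of promoters were made after values were seen. The 250 bases before the start are printed 5′ to 3′, with a match in capitals. They are from chr5:90890995-90891244 (plus strand) for Cxcl1, chr1:83116516-83116765 (plus strand) for Ccl20, chr5:92348890-92349139 (minus strand) for Cxcl10, chr4:42756366-42756615 (minus strand) for Ccl19, chr13:56296552-56296801 (minus strand) for Cxcl14 and chr8:94771930-94772179 (plus strand) for Cx3cl1.
Cxcl1: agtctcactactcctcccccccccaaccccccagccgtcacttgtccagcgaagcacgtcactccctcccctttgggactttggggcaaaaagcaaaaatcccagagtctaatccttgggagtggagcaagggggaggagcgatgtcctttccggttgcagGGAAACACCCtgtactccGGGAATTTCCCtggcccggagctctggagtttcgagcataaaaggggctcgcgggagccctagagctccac
Ccl20: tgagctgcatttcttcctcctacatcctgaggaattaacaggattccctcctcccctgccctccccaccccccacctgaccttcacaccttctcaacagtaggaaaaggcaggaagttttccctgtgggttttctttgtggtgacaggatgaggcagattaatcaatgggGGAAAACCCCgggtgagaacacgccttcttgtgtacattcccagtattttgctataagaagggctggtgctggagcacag
Cxcl10: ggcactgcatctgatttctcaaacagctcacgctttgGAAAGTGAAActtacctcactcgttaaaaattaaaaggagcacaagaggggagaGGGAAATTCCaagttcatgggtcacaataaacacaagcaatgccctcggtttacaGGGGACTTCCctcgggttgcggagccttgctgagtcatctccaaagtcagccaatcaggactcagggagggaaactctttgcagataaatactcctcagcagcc
Ccl19: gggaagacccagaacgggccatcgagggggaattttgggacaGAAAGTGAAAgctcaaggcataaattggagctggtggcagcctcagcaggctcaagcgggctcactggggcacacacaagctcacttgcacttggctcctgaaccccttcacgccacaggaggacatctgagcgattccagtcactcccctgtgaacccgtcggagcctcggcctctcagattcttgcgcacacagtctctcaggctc
Cxcl14: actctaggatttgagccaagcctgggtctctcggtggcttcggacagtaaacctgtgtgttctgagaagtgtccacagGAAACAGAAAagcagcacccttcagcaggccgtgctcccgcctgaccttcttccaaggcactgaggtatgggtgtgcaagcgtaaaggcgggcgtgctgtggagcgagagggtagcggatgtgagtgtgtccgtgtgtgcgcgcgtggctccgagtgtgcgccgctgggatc
Cx3cl1: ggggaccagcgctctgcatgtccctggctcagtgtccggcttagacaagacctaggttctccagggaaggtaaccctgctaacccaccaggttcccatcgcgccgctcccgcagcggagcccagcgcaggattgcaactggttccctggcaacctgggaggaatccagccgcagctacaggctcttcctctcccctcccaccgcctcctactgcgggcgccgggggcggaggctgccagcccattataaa
In the Cxcl1 promoter the capitals mark NF-kB matches, the second run being a pair of matches on opposite strands that overlap in all but 1 base at each end. The match of Ccl20 is to NF-kB. Cxcl10 holds an ISRE match followed by 2 NF-kB matches, and the matches of Ccl19 and Cxcl14 are to ISRE. The Cx3cl1 window holds neither. RefSeq promoters were found for 39 of the 53 members, with 48 starts. Ccl2, Ccl5 and Cxcl16 were not among the 39, and Ccl3 was, without either match, but is not printed. Being chosen in part for a match, the 6 printed promoters do not show how common matches are. NF-kB letters were in 6 of the 48 (12.5%), those of Cxcl1, Cxcl2, Cxcl10, Ccl20, Ccl9 and Ccr6, against 5.56% of all promoters. ISRE letters were in 3 of the 48 (6.25%) against 3.44% of all. Further letters searched were TGA, any base and TCA for AP-1, in 14.6% of the 48 against 7.81% of all, GGAATG for TEAD, in 16.7% against 14.7%, and GGTCA, any 6 bases and GGTCA for the retinoic acid receptor repeat, in 0% against 0.1%. A match is a description of the letters and not evidence of binding.

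Libraries held 10124813 to 18647156 counts, of which the 53 members took 0.0325% to 0.0681%. Values are CPM, the count of a gene scaled to a fixed library total, with TMM scaling, and are listed for replicates 1, 2 and 3 of a group. Mdm2 itself was at 31.8 to 67.2 CPM in LiKM mice on ACR, against 21.6 to 23.5 CPM in LiK mice on ACR, and at 29.0 to 35.0 CPM in LiKM mice on the normal diet, against 23.4 to 25.8 CPM in LiK mice on the normal diet. A count over the whole gene does not check a deletion that removes some exons, so it does not test the strain labels. Clock genes set LiKM on ACR 2 and 3 and LiKM on the normal diet 3 apart from the other libraries of their groups, and Npas2, a clock transcription factor, was at 10.4 and 18.2 CPM in the first pair, against 0.0622 CPM in LiKM on ACR 1. Dbp, a clock output gene whose level follows the time of day, was at 73.9 CPM in LiKM on the normal diet 3, against 8.46 and 25.7 CPM in 1 and 2. Between strains it was at 3.22 to 15.4 CPM in LiKM on ACR against 136 to 139 CPM in LiK on ACR, without overlap. On the normal diet the LiK libraries, at 25.6 to 35.9 CPM, lay within the LiKM range. The part of the clock in the strain differences was not tested. Sample identifiers begin with MP in 3 libraries (LiKM on ACR 3, LiK on the normal diet 2 and 3) and with KM in the others, and the labels do not say what the prefix means.

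The filter on low counts left 40 members, 24 ligands and 16 receptors, for the test. On ACR, 10 of the 40 were higher and 1 was lower in LiKM mice than in LiK mice (27.5%), where 5.55% of all 13880 genes tested were higher, 4.24% lower and 9.79% either. With the normal diet 17 were higher and 1 was lower (45%), where 13.2% of all genes were higher, 8.61% lower and 21.8% either. The median log2 fold change of the tested members was 1.14 on ACR and 1.42 on the normal diet, beside 0.02 on each diet for all genes. On ACR the LiKM libraries lay wholly above the LiK libraries for 20 members and below for 1, beside 17.2% and 16.1% of all genes. On the normal diet this held for 23 members above and 1 below, beside 20.7% and 19.4% of all genes. The median of all genes moved to 0.14 on ACR and 0.41 on the normal diet when library size alone was used for scaling. Of the called genes 77.9% on ACR and 97.6% on the normal diet were then higher, against 56.7% and 60.6% with TMM. Changes are given with TMM throughout. Without the 3 LiKM libraries set apart by clock genes, 42 members were tested, and 2 (Cxcl14 and Ccr1) were higher on ACR, where 1 LiKM library was left, and 16 were higher and 1 lower on the normal diet. These 2 had not passed with all libraries, so all 11 calls on ACR were lost there. With the identifier prefix as a covariate, 3 were higher and 1 lower on ACR, and 18 higher and 1 lower on the normal diet. That fit ended the ACR calls of Ccl19 (adjusted p = 0.0542), Ccl5 (0.057), Ccr2 (0.0571), Cx3cl1 (0.0578), Ccl21a (0.067), Cxcl16 (0.0742), Cxcl10 (0.0977) and Ccl3 (0.101) and the normal diet call of Cxcl1 (0.0636).

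These counts and medians cover members that passed the filter and not all 53. Of the 40, 16 had fewer than 3 LiK libraries at the filter's level of 0.677 CPM and so passed largely through the LiKM libraries. They were Ccl3, Ccl8, Ccl20, Ccl21a, Ccl22, Cxcl2, Cxcl5, Cxcl14, Cx3cl1, Ccr1, Ccr7, Cxcr3, Cxcr5, Cxcr6, Xcr1 and Ackr3, and 3 of them were called on ACR and 7 on the normal diet. Among the other 24, 8 were called on ACR and 11 on the normal diet. The medians and the counts of libraries wholly above or below were not split in this way. As the 16 enter them, they lean towards LiKM in part through the filter. The 13 members not tested, with their summed counts over 12 libraries, were Ccr9 (81), Ccl27b (70.5), Ccl4 (67), Ccl21b and Ccl21c (56.9 each, with identical values in every library), Ccr10 (46.5), Ccr6 (37), Ccl7 (31), Xcl1 (17), Ccl28 (16), Cxcl17 (14), Ccl12 (13) and Ccl17 (13). Cxcl17, a chemoattractant of mucosal tissue, had a count in 5 of 6 LiKM libraries and 0 counts in all 6 LiK libraries, which allows up to 0.0344 CPM over the 6 (3 counts of their total, counting error only). Its highest LiKM value was 0.24 CPM.

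**Figure D1:**
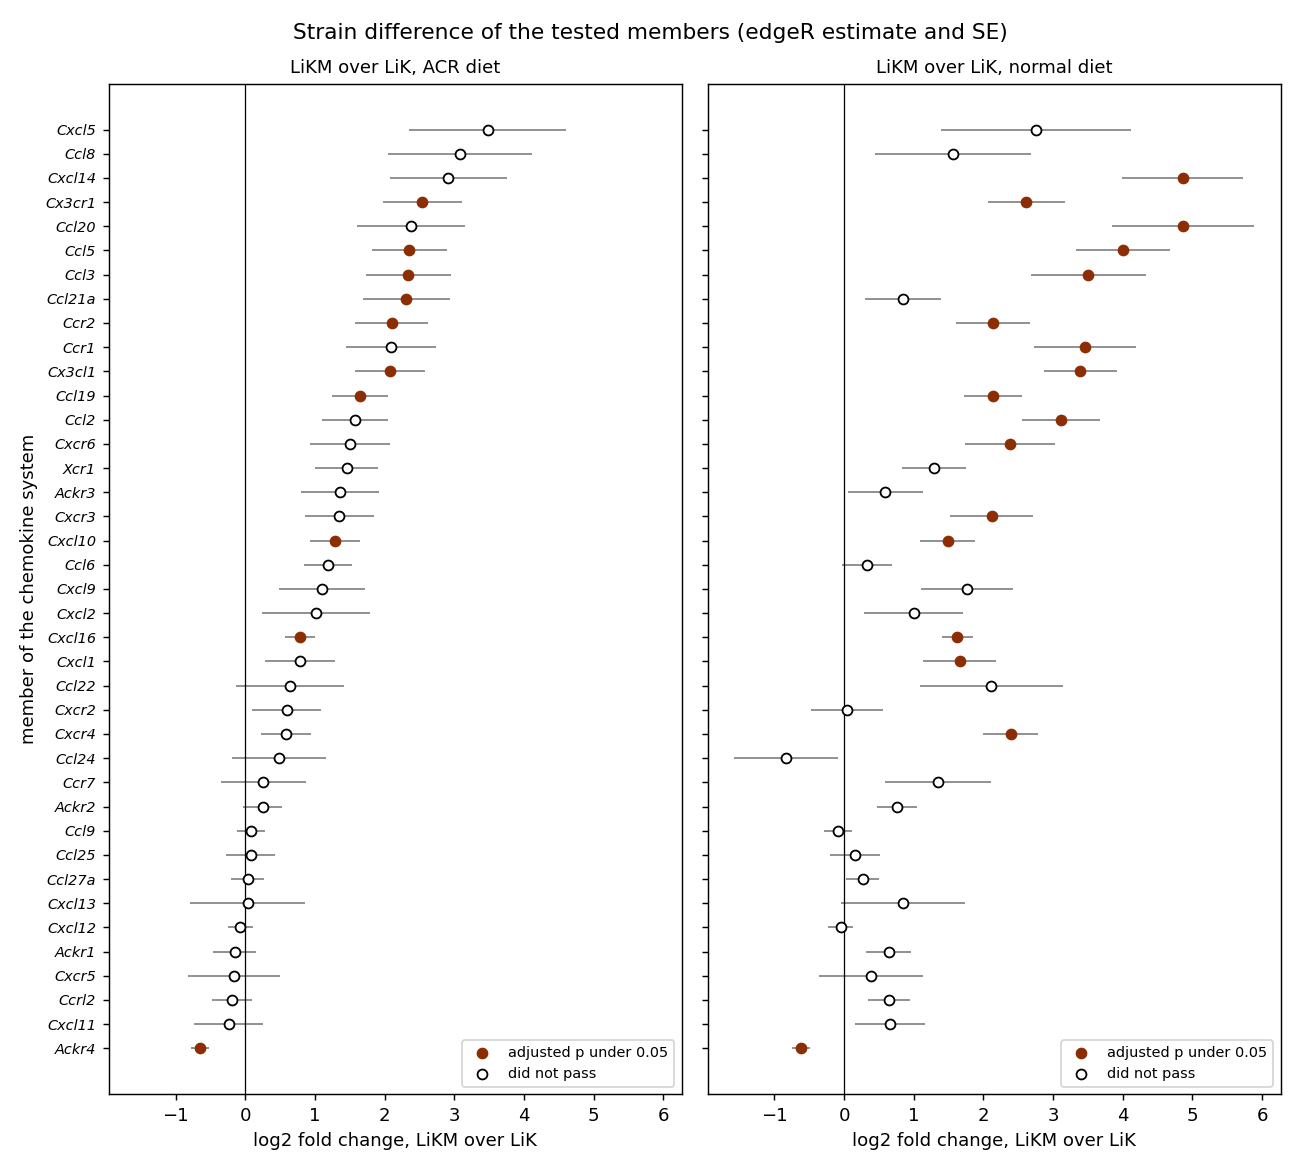
Log2 fold change of LiKM over LiK for 39 of the tested members, with ACR and the normal diet in a panel each (points, edgeR estimate; bars, standard error; filled points passed an adjusted p of 0.05). On ACR 9 filled points lie right of 0 and 1, Ackr4, lies left of it, and on the normal diet 16 lie right and 1, again Ackr4, left.

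In a bulk liver, more cells of a type and more RNA per cell cannot be told apart, and this touches every result here. Ptprc, the CD45 antigen shared by nearly all leukocytes, was at 32.4, 30.2 and 30.7 CPM in LiKM mice on ACR, against 9.88, 13.1 and 21.5 CPM in LiK mice on ACR. It was at 22.3, 24.2 and 22.7 CPM in LiKM mice on the normal diet, against 4.93, 10.4 and 9.30 CPM in LiK mice on the normal diet, so that every LiKM library was above every LiK library. Summed T cell markers (9 genes) were at 12.1 to 20.9 CPM in LiKM against 5.84 to 8.14 CPM in LiK on ACR, and at 8.68 to 16.2 CPM in LiKM against 5.61 to 6.95 CPM in LiK on the normal diet. Of the 9, 4 were higher on ACR, and 8 were higher and 1, Cd4, lower on the normal diet. On ACR the Cd4 values ran from 1.49 to 2.24 CPM in LiKM, below the 2.61 to 3.68 CPM of LiK. With the normal diet they ran from 2.33 to 3.66 CPM in LiKM, below the 4.47 to 6.36 CPM of LiK. Cd4 was the largest single part of the T cell sum in each LiK library, so these sums do not stand for the other 8 genes. Summed NK cell markers (8 genes) were at 5.79 to 12.8 CPM in LiKM against 1.46 to 4.73 CPM in LiK on ACR, and at 3.43 to 8.69 CPM against 0.712 to 1.34 CPM on the normal diet. Of the 5 NK markers tested, 2 were higher on ACR and 4 on the normal diet.

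Markers of monocytes and recruited macrophages (9 genes) summed to 129 to 169 CPM in LiKM against 74.1 to 105 CPM in LiK on ACR, and to 109.6 to 129.7 CPM against 37.5 to 101 CPM on the normal diet, with 2 of 9 higher on each diet. Lyz2 and Cd9 together made up most of these sums, and both overlapped between strains on ACR. On the normal diet Lyz2 overlapped (33.1 to 70.3 against 20.5 to 62.0 CPM) and Cd9 did not (21.8 to 51.9 against 9.80 to 11.8 CPM). Neutrophil markers (7 genes, 5 tested) summed to 14.9 to 29.4 CPM in LiKM against 6.53 to 9.66 CPM in LiK on ACR, and to 9.99 to 16.1 CPM against 1.82 to 4.54 CPM on the normal diet, with 3 of 5 higher on each diet. Dendritic cell markers (8 genes, Xcr1 among them) summed to 23.3 to 30.5 CPM in LiKM against 10.6 to 15.1 CPM in LiK on ACR, and to 21.5 to 24.4 CPM against 7.64 to 11.2 CPM on the normal diet, with 3 and 4 of 8 higher. Biliary epithelium markers (7 genes) summed to 324 to 512 CPM in LiKM against 35.4 to 182 CPM in LiK on ACR, and to 569 to 1004 CPM against 34.3 to 51.3 CPM on the normal diet, and all 7 were higher on both diets. Of the 7 Kupffer cell markers none was called on either diet, and their sums ran from 106.5 to 365 CPM in LiKM and from 118 to 341 CPM in LiK. Stellate cell markers (7 genes) summed to 351 to 406 CPM in LiKM against 246 to 314 CPM in LiK on ACR, with none called, and to 252 to 469 CPM against 207 to 319 CPM on the normal diet, with 3 higher. No marker of these lists was at 0 over a whole group. The part of these cell types in the results below was not tested.

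Among the inflammatory CC ligands, 7 of 10 members were tested, and 2 were higher in LiKM on ACR and 3 on the normal diet. Ccl5 (RANTES), a CCR1 and CCR3 ligand that T and NK cells release, had 8.02, 7.66 and 16.2 CPM in LiKM mice on ACR, against 0.721, 2.93 and 2.54 CPM in LiK mice on ACR. It had 2.70, 9.30 and 7.48 CPM in LiKM mice on the normal diet, against 0.423, 0.226 and 0.586 CPM in LiK mice on the normal diet. All LiKM libraries were above the LiK libraries of the same diet, although LiKM on the normal diet 1 was below the highest LiK library on ACR. The difference was log2 2.35 ± 0.54 (SE), 5.11-fold, edgeR adjusted p = 0.023, on ACR and log2 4.01 ± 0.68 (SE), 16.1-fold, edgeR adjusted p = 0.00281, on the normal diet. Ccl2 (MCP-1), which draws CCR2-bearing monocytes, had 3.48, 3.25 and 3.72 CPM in LiKM mice on ACR, against 0.937, 1.46 and 1.10 CPM in LiK mice on ACR. It had 4.62, 2.32 and 1.75 CPM in LiKM mice on the normal diet, against 0.0704, 0.679 and 0.167 CPM in LiK mice on the normal diet. Its 6 LiKM libraries were above all 6 LiK libraries. Ccl2 was higher in LiKM on the normal diet (log2 3.11 ± 0.56 (SE), 8.65-fold, edgeR adjusted p = 0.00346) and missed the threshold on ACR (log2 1.57 ± 0.47 (SE), edgeR adjusted p = 0.0561). With the replicate number as a block within LiKM, the ACR call of Ccl5 was lost (adjusted p = 0.0693) and that of Ccl2 was gained (log2 1.98, adjusted p = 0.0319). The ACR call of Ccl5 was also lost without LiKM on ACR 3 (0.0569) and without LiK on ACR 1, 2 or 3 (0.0641, 0.0599 and 0.0529).

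Ccl3 (MIP-1 alpha), another CCR1 ligand, had 0.498, 0.610 and 1.77 CPM in LiKM mice on ACR, against 0.144, 0.133 and 0.274 CPM in LiK mice on ACR. It had 0.480, 0.704 and 0.636 CPM in LiKM mice on the normal diet, against 0.0704, 0.0566 and 0 CPM in LiK mice on the normal diet. These are low levels, with no library above 2 CPM, but LiKM and LiK libraries did not overlap over both diets. Ccl3 was higher on ACR (log2 2.34 ± 0.61 (SE), edgeR adjusted p = 0.0348) and on the normal diet (log2 3.50 ± 0.83 (SE), edgeR adjusted p = 0.0123). The ACR call was lost with the block within LiKM (adjusted p = 0.133) and without LiKM on ACR 3 (0.109), LiK on ACR 1 (0.11), 2 (0.132) or 3 (0.0603). Ccl4 (MIP-1 beta), which lies beside it, was too rare to be tested, at 0.435, 0.746 and 1.28 CPM in LiKM mice on ACR, against 0, 0.333 and 0.137 CPM in LiK mice on ACR, and 0.300, 0.563 and 0.239 CPM in LiKM mice on the normal diet, against 0.141, 0.113 and 0.0837 CPM in LiK mice on the normal diet.

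Ccl9 and Ccl6, CCR1 ligands of mouse myeloid cells, did not pass the test on either diet. Ccl9 had 70.7, 61.1 and 53.3 CPM in LiKM mice on ACR, against 53.5, 51.0 and 70.6 CPM in LiK mice on ACR. It had 42.9, 51.7 and 48.3 CPM in LiKM mice on the normal diet, against 61.7, 34.4 and 56.0 CPM in LiK mice on the normal diet, so that the strains overlapped (log2 0.08 ± 0.20 (SE), edgeR adjusted p = 0.833, on ACR and log2 -0.09 ± 0.20 (SE), edgeR adjusted p = 0.795, on the normal diet). Its counts are not whole in any library, which arises where reads are shared between genes, so its level is uncertain. Ccl6, given here although chosen after its values were seen, had 20.2, 17.4 and 12.6 CPM in LiKM mice on ACR, against 4.90, 6.13 and 11 CPM in LiK mice on ACR. It had 6.90, 10.6 and 5.65 CPM in LiKM mice on the normal diet, against 4.02, 8.37 and 5.95 CPM in LiK mice on the normal diet. On ACR its LiKM libraries were above the LiK ones, with log2 1.19 ± 0.35 (SE), edgeR adjusted p = 0.0509. There it passed with DESeq2 (adjusted p = 0.0123), with library size alone (edgeR adjusted p = 0.0407) and in some fits that left out 1 library. Of the other 2 tested, Ccl8 and Ccl24, group means ran from 0.0938 to 0.84 CPM and from 0.521 to 1.22 CPM.

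Ccr2, the monocyte receptor for CCL2, had 16, 10.6 and 9.15 CPM in LiKM mice on ACR, against 3.14, 2.36 and 2.74 CPM in LiK mice on ACR. It had 7.35, 15.1 and 9.39 CPM in LiKM mice on the normal diet, against 0.564, 4.70 and 1.67 CPM in LiK mice on the normal diet. All 6 LiKM libraries were above all 6 LiK libraries. Its values are not whole in 5 of 12 libraries. Ccr2 was higher on ACR (log2 2.10 ± 0.53 (SE), 4.30-fold, edgeR adjusted p = 0.0313) and on the normal diet (log2 2.14 ± 0.53 (SE), 4.41-fold, edgeR adjusted p = 0.0172). With the block within LiKM, Ccr2 missed the threshold on both diets (adjusted p = 0.0578 on ACR and 0.0633 on the normal diet). Single libraries also decided these calls. The normal diet call of Ccr2 was lost without LiKM on the normal diet 2 (0.0508) or LiK on the normal diet 3 (0.0634), and its ACR call without LiKM on ACR 1 (0.0785) or 2 (0.0589) or LiK on ACR 1 (0.0856), 2 (0.12) or 3 (0.0876).

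Ccr1, a receptor of monocytes and neutrophils for CCL3, CCL5, CCL6 and CCL9, was rarer and had 1.62, 0.814 and 0.305 CPM in LiKM mice on ACR, against 0.216, 0.200 and 0.206 CPM in LiK mice on ACR. It had 1.26, 1.06 and 0.875 CPM in LiKM mice on the normal diet, against 0.0704, 0.170 and 0 CPM in LiK mice on the normal diet. Every LiKM library was above every LiK library, of which 1 had no count. Ccr1 was higher on the normal diet (log2 3.46 ± 0.74 (SE), 11-fold, edgeR adjusted p = 0.00773) and missed the threshold on ACR (log2 2.09 ± 0.65 (SE), edgeR adjusted p = 0.0613), where the block within LiKM brought it past (log2 2.59, adjusted p = 0.0195). For so rare a transcript the fold moves with the prior count of the fit. Ccr9, Ccr6 and Ccr10, receptors of homeostatic ligands, were too rare to be tested.

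Among the homeostatic CC ligands 6 of 11 were tested, and 2 were higher in LiKM on each diet. Ccl19, which guides CCR7-bearing dendritic and T cells, had 3.71, 2.98 and 4.54 CPM in LiKM mice on ACR, against 1.17, 1.94 and 0.480 CPM in LiK mice on ACR. It had 4.58, 3.11 and 2.98 CPM in LiKM mice on the normal diet, against 0.775, 1.03 and 0.611 CPM in LiK mice on the normal diet. The lowest LiKM library, at 2.98 CPM, was above the highest LiK library, at 1.94 CPM. Ccl19 was higher on ACR (log2 1.65 ± 0.40 (SE), 3.13-fold, edgeR adjusted p = 0.0252) and on the normal diet (log2 2.13 ± 0.42 (SE), 4.39-fold, edgeR adjusted p = 0.00518). Its values are not whole in 10 of 12 libraries, as arises where reads are shared between near-identical copies, and it is uncertain. The ACR call was lost without LiKM on ACR 3 (adjusted p = 0.0631) or LiK on ACR 1 (0.0805) or 3 (0.0582). Ccr7, its receptor, had 0.684, 1.42 and 1.77 CPM in LiKM mice on ACR, against 0.577, 0.666 and 1.99 CPM in LiK mice on ACR, and 0.420, 1.20 and 0.716 CPM in LiKM mice on the normal diet, against 0.634, 0.170 and 0.0837 CPM in LiK mice on the normal diet. The strains overlapped for Ccr7 on both diets, with log2 0.26 ± 0.61 (SE), edgeR adjusted p = 0.823, on ACR and log2 1.35 ± 0.76 (SE), edgeR adjusted p = 0.223, on the normal diet.

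Ccl21a, a second CCR7 ligand made by lymphatic endothelium and stroma, had 0.665, 0.827 and 0.689 CPM in LiKM mice on ACR, against 0.274, 0 and 0.130 CPM in LiK mice on ACR. It had 0.708, 0.606 and 0.467 CPM in LiKM mice on the normal diet, against 0.240, 0.430 and 0.310 CPM in LiK mice on the normal diet. Ccl21a was higher on ACR (log2 2.31 ± 0.62 (SE), edgeR adjusted p = 0.0381) and did not pass on the normal diet (log2 0.85 ± 0.55 (SE), edgeR adjusted p = 0.293). Its values are not whole in 11 of 12 libraries, like those of Ccl21b and Ccl21c, and it is uncertain for the same reason. Leaving out any library of the ACR comparison but LiK on ACR 1 ended its call (adjusted p = 0.0668, 0.088 and 0.0639 without LiKM on ACR 1, 2 and 3, and 0.105 and 0.0994 without LiK on ACR 2 and 3), as did leaving out LiKM on the normal diet 2 (0.055) or LiK on the normal diet 3 (0.0573), and the block within LiKM (0.0575). Ccl20, an epithelial ligand of CCR6, had 1.18, 0.271 and 0.793 CPM in LiKM mice on ACR, against 0.144, 0.266 and 0 CPM in LiK mice on ACR. It had 0.900, 0.634 and 1.19 CPM in LiKM mice on the normal diet, against 0.0704, 0 and 0 CPM in LiK mice on the normal diet. Of the 6 LiK libraries 3 had no count. Ccl20 was higher on the normal diet (log2 4.86 ± 1.02 (SE), edgeR adjusted p = 0.00736) and missed on ACR (log2 2.38 ± 0.78 (SE), edgeR adjusted p = 0.0714), where the block within LiKM gave log2 2.69 and an adjusted p of 0.0439. Ccl22, Ccl25 and Ccl27a were tested and not called, with group means of 0.137 to 1.15, 1.69 to 2.00 and 2.83 to 3.38 CPM. Ccl27a is uncertain, since its values are not whole in any library.

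Ackr4, the atypical receptor that takes up CCL19, CCL21 and CCL25, was the 1 member that was lower in LiKM. It had 10.7, 10.9 and 8.87 CPM in LiKM mice on ACR, against 14.3, 15.9 and 17.6 CPM in LiK mice on ACR. It had 9.99, 10.1 and 8.99 CPM in LiKM mice on the normal diet, against 16.4, 14.5 and 13.8 CPM in LiK mice on the normal diet. All 6 LiKM libraries were below all 6 LiK libraries. It was lower on ACR (-0.65 ± 0.13 on the log2 scale (SE), 1.57-fold lower, edgeR adjusted p = 0.0125) and on the normal diet (-0.62 ± 0.13 on the log2 scale (SE), 1.53-fold lower, edgeR adjusted p = 0.00742). With library size alone the normal diet difference kept its sign and no longer passed (log2 -0.23, adjusted p = 0.184). Without LiK on ACR 2 the ACR difference had an adjusted p of 0.0535. The values of Ackr4 are not whole in 6 of 12 libraries, as arises where reads are shared between genes, so its level is uncertain. Hepatocyte markers (6 genes) summed to 122300 to 157300 CPM in LiKM against 146300 to 158400 CPM in LiK on ACR, and to 88570 to 98390 CPM against 113100 to 162600 CPM on the normal diet. Alb made up most of these sums. Of the 6 markers, 2 were lower on the normal diet and none on ACR. Their part in the Ackr4 difference was not tested. The other atypical receptors, Ackr1 (Duffy), Ackr2 (D6), Ackr3 and Ccrl2, were tested and not called, with group means from 0.556 to 2.91 CPM. Ackr3, which takes up CXCL12, had 1.62, 1.15 and 1.52 CPM in LiKM mice on ACR, against 0.865, 0.666 and 0.137 CPM in LiK mice on ACR, and 1.92, 1.06 and 0.954 CPM in LiKM mice on the normal diet, against 0.493, 1.47 and 0.586 CPM in LiK mice on the normal diet. Ackr1, which binds CXCL1 among others, had 1.18, 0.881 and 1.46 CPM in LiKM mice on ACR, against 1.08, 1.46 and 1.37 CPM in LiK mice on ACR, and 1.5, 1.34 and 1.03 CPM in LiKM mice on the normal diet, against 0.634, 0.792 and 1.09 CPM in LiK mice on the normal diet.

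**Figure D2:**
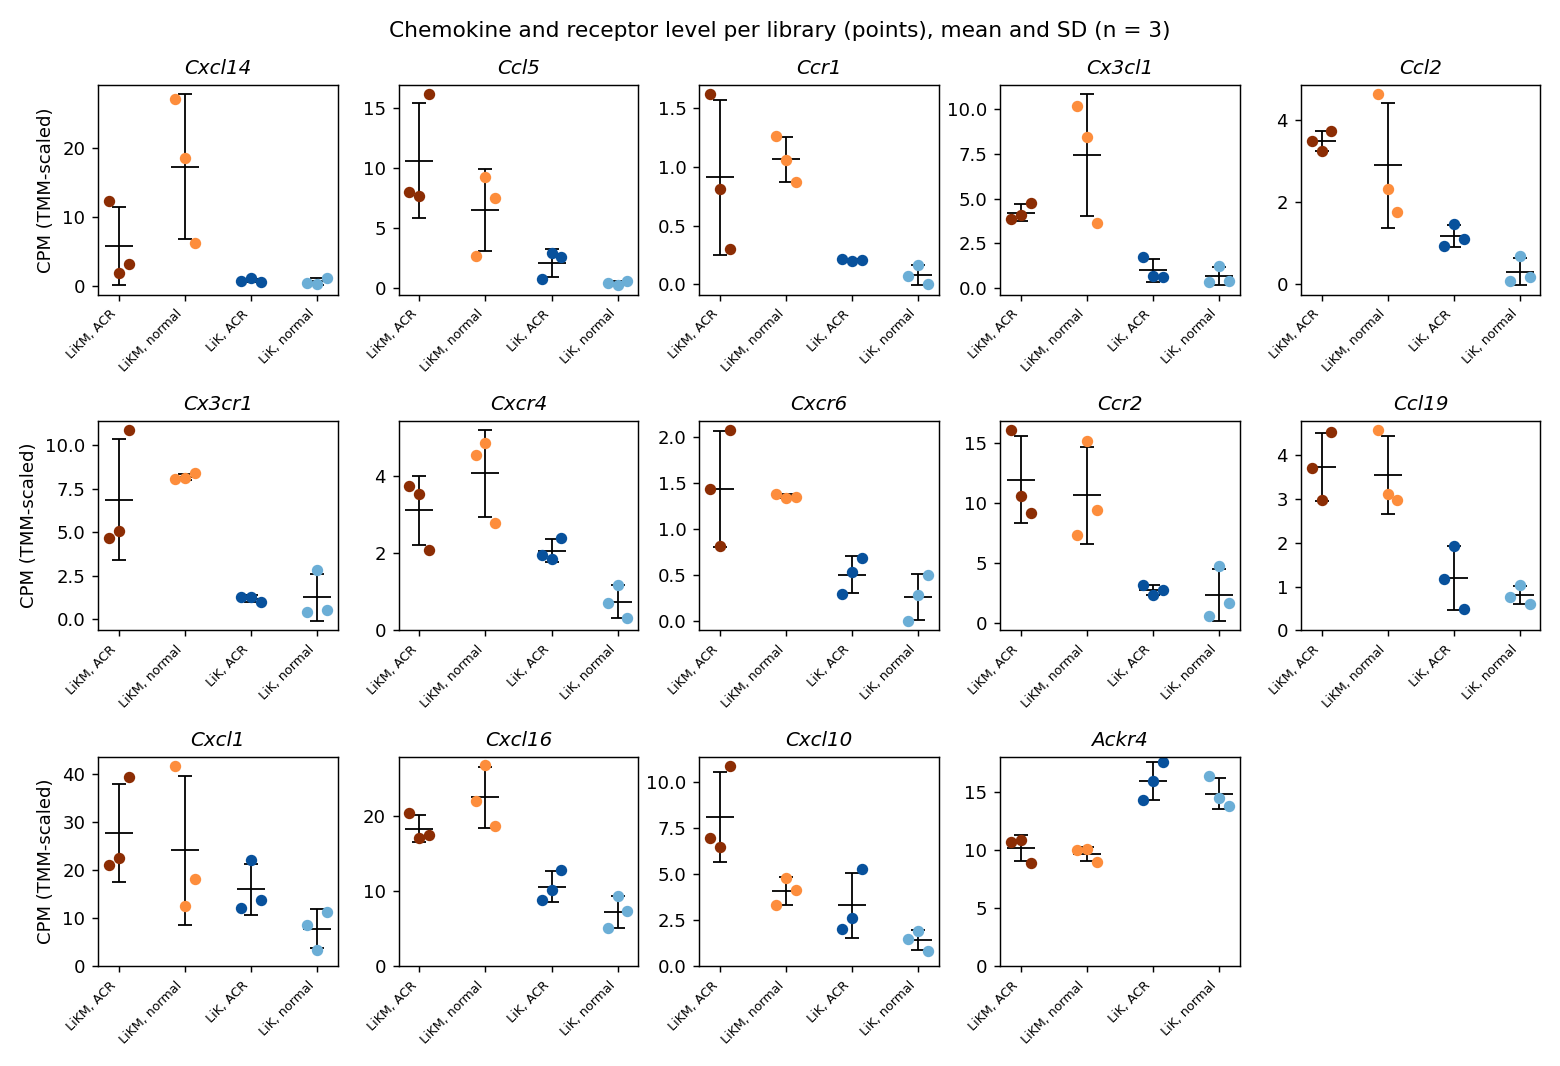
CPM of 14 members in each library, in the 4 groups LiKM on ACR, LiKM fed normally, LiK on ACR and LiK fed normally (points, libraries; lines, mean ± SD, n = 3). Cxcl14 reaches 27.0 CPM in LiKM and no more than 1.17 CPM in LiK, and Ackr4 is the panel in which the LiK libraries are the higher ones.

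The ELR CXC ligands, which draw neutrophils through CXCR2, were 3 and all were tested. Cxcl1 (KC) had 21.1, 22.6 and 39.4 CPM in LiKM mice on ACR, against 12.2, 22.1 and 13.9 CPM in LiK mice on ACR. It had 41.7, 12.5 and 18.1 CPM in LiKM mice on the normal diet, against 8.66, 3.34 and 11.4 CPM in LiK mice on the normal diet. On ACR the strains overlapped, since LiK on ACR 2 was above LiKM on ACR 1. On the normal diet every LiKM library was above the LiK ones, and LiKM on the normal diet 1 was the highest of all 12. The difference on the normal diet was log2 1.66 ± 0.53 (SE), 3.16-fold, edgeR adjusted p = 0.0461, and on ACR log2 0.79 ± 0.50 (SE), edgeR adjusted p = 0.342. This call rested on nearly every library: it was lost with the block within LiKM (adjusted p = 0.0633) and without any 1 of the 12 libraries except LiKM on ACR 3 and LiKM on the normal diet 2, with adjusted p from 0.0543 to 0.168, the highest without LiKM on the normal diet 1. It was also lost without the low-count filter (0.0584), with only the groups of the comparison (0.0966) and with the block over all 12 libraries (0.0649). Cxcl2 and Cxcl5, from the same stretch of chromosome 5, were rarer. Cxcl5 (LIX), named here as a call gained with the block, had 1.68, 0.136 and 0.732 CPM in LiKM mice on ACR, against 0.144, 0.0666 and 0 CPM in LiK mice on ACR, and 0.780, 0.0704 and 0.159 CPM in LiKM mice on the normal diet, against 0, 0.0566 and 0.0837 CPM in LiK mice on the normal diet. It was not called on ACR (log2 3.48 ± 1.12 (SE), edgeR adjusted p = 0.07) or the normal diet (log2 2.75 ± 1.36 (SE), edgeR adjusted p = 0.168), and was with the block within LiKM (adjusted p = 0.00421 on ACR and 0.0146 on the normal diet). Cxcr2, the receptor for all of them, had 2.40, 0.799 and 0.758 CPM in LiKM mice on ACR, against 0.847, 0.678 and 1.11 CPM in LiK mice on ACR, and 0.940, 0.577 and 1.27 CPM in LiKM mice on the normal diet, against 0.609, 1.20 and 0.844 CPM in LiK mice on the normal diet. Its libraries overlapped on both diets (log2 0.60 ± 0.50 (SE), edgeR adjusted p = 0.471, on ACR and log2 0.05 ± 0.52 (SE), edgeR adjusted p = 0.959, on the normal diet), and as its values are not whole in all 12 libraries it is uncertain.

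The ligands of CXCR3, which interferon gamma induces and which draw activated T and NK cells, were also 3. Cxcl10 (IP-10), with the ISRE and NF-kB matches shown above, had 6.97, 6.44 and 10.9 CPM in LiKM mice on ACR, against 2.02, 2.60 and 5.28 CPM in LiK mice on ACR. It had 3.30, 4.79 and 4.14 CPM in LiKM mice on the normal diet, against 1.48, 1.92 and 0.837 CPM in LiK mice on the normal diet. LiKM libraries were above LiK libraries of the same diet, whereas LiK on ACR 3 was above all LiKM libraries on the normal diet. Cxcl10 was higher on ACR (log2 1.29 ± 0.36 (SE), 2.45-fold, edgeR adjusted p = 0.0441) and on the normal diet (log2 1.49 ± 0.40 (SE), 2.80-fold, edgeR adjusted p = 0.0216). Both calls were lost with the block within LiKM (adjusted p = 0.129 on ACR and 0.0901 on the normal diet). The normal diet call was lost without LiKM on the normal diet 2 (0.0583) or LiK on the normal diet 1 (0.0652) or 3 (0.0765), and the ACR call without LiKM on ACR 1, 2 or 3 (0.0605, 0.0601 and 0.116), LiK on ACR 1 or 2 (0.139 and 0.162), LiKM on the normal diet 2 (0.0564) or LiK on the normal diet 1 (0.0576). Cxcl9 (MIG), the most abundant of the 3, was chosen after its values were seen, and these are not whole in 6 of 12 libraries. It had 79.9, 29.2 and 70.1 CPM in LiKM mice on ACR, against 9.95, 18.8 and 54.9 CPM in LiK mice on ACR. It had 15.5, 42.2 and 18.0 CPM in LiKM mice on the normal diet, against 9.79, 7.02 and 5.36 CPM in LiK mice on the normal diet. Its libraries spread widely within groups, LiK on ACR 3 reaching the range of the LiKM libraries on ACR, and it passed on neither diet in the main fit (log2 1.10 ± 0.62 (SE), edgeR adjusted p = 0.284, on ACR and log2 1.76 ± 0.66 (SE), edgeR adjusted p = 0.0841, on the normal diet). On the normal diet it passed with DESeq2 (adjusted p = 0.0422). With edgeR it did so with library size alone (adjusted p = 0.035), with only the groups of the comparison (0.0362) and without LiK on ACR 3 (0.0364).

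Cxcl11, which GENCODE annotates as a polymorphic pseudogene in this genome, was at group means of 1.27 to 2.05 CPM and was not called. Cxcr3, the receptor, was rare, with 0.995, 0.949 and 1.95 CPM in LiKM mice on ACR, against 0.505, 0.333 and 0.686 CPM in LiK mice on ACR. It had 0.660, 1.41 and 0.636 CPM in LiKM mice on the normal diet, against 0.141, 0.340 and 0.0837 CPM in LiK mice on the normal diet. LiKM libraries were above LiK libraries within each diet. Cxcr3 was higher on the normal diet (log2 2.12 ± 0.59 (SE), 4.34-fold, edgeR adjusted p = 0.0253) and did not pass on ACR (log2 1.35 ± 0.50 (SE), edgeR adjusted p = 0.103). The normal diet call was lost with the block within LiKM (adjusted p = 0.118) and without LiKM on the normal diet 2 (0.0899) or LiK on the normal diet 1 (0.0882) or 3 (0.083).

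Both transmembrane chemokines, which are made as membrane-tethered proteins and can be shed, were higher in LiKM on both diets, as was the receptor Cx3cr1, while the receptor Cxcr6 passed on the normal diet. Cx3cl1 (fractalkine) had 3.86, 4.07 and 4.76 CPM in LiKM mice on ACR, against 1.73, 0.666 and 0.617 CPM in LiK mice on ACR. It had 10.2, 8.45 and 3.66 CPM in LiKM mice on the normal diet, against 0.352, 1.24 and 0.419 CPM in LiK mice on the normal diet. No LiKM library was below 3.66 CPM and no LiK library above 1.73 CPM. Cx3cl1 was higher on ACR (log2 2.08 ± 0.51 (SE), 4.22-fold, edgeR adjusted p = 0.0275) and on the normal diet (log2 3.39 ± 0.53 (SE), 10.5-fold, edgeR adjusted p = 0.00154). Cx3cr1, its receptor on monocytes and macrophages, had 4.67, 5.08 and 10.9 CPM in LiKM mice on ACR, against 1.30, 1.27 and 0.964 CPM in LiK mice on ACR. It had 8.04, 8.10 and 8.39 CPM in LiKM mice on the normal diet, against 0.430, 2.80 and 0.507 CPM in LiK mice on the normal diet. The 6 LiKM libraries were above the 6 LiK ones, among which LiK on the normal diet 2 was the highest. Cx3cr1 was higher on ACR (log2 2.54 ± 0.57 (SE), 5.83-fold, edgeR adjusted p = 0.0206) and on the normal diet (log2 2.61 ± 0.55 (SE), 6.12-fold, edgeR adjusted p = 0.00819). Its values are not whole in 8 of 12 libraries. The normal diet calls of both held under every alternative tried. On ACR, Cx3cl1 lost its call without LiKM on ACR 2 or 3 (adjusted p = 0.0581 and 0.061) or LiK on ACR 2 or 3 (0.116 and 0.0889). Cx3cr1 lost its own with the block within LiKM (0.0545), without LiKM on ACR 3 (0.0507) and without LiK on ACR 1, 2 or 3 (0.0653, 0.0813 and 0.0667).

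Cxcl16, the other of the pair, which macrophages and epithelium make and which also binds oxidised lipid, had 20.3, 17.0 and 17.5 CPM in LiKM mice on ACR, against 8.80, 10.1 and 12.8 CPM in LiK mice on ACR. It had 22.0, 26.8 and 18.7 CPM in LiKM mice on the normal diet, against 5.07, 9.31 and 7.33 CPM in LiK mice on the normal diet. Every LiKM library was at 17.0 CPM or above and every LiK library at 12.8 CPM or below. Its values are not whole in 5 of 12 libraries. Cxcl16 was higher on ACR (log2 0.79 ± 0.21 (SE), 1.73-fold, edgeR adjusted p = 0.038) and on the normal diet (log2 1.63 ± 0.22 (SE), 3.09-fold, edgeR adjusted p = 0.000707), where its adjusted p was the smallest of the members. Cxcr6, its receptor on liver-resident T and NKT cells, had 1.43, 0.814 and 2.07 CPM in LiKM mice on ACR, against 0.288, 0.533 and 0.686 CPM in LiK mice on ACR. It had 1.38, 1.34 and 1.35 CPM in LiKM mice on the normal diet, against 0, 0.283 and 0.502 CPM in LiK mice on the normal diet. The strains did not overlap over both diets. Cxcr6 was higher on the normal diet (log2 2.38 ± 0.64 (SE), 5.21-fold, edgeR adjusted p = 0.0219) and did not pass on ACR (log2 1.5 ± 0.57 (SE), edgeR adjusted p = 0.112). Without LiK on the normal diet 2 the normal diet call of Cxcr6 was lost (adjusted p = 0.0533). The ACR call of Cxcl16 was lost without LiKM on ACR 1, 2 or 3 (0.0944, 0.068 and 0.0611), LiK on ACR 1 or 2 (0.128 and 0.13) or LiK on the normal diet 3 (0.0562).

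Cxcl14 and Ccl20 had the largest strain differences on the normal diet. Cxcl14, the chemokine of epithelia with an ISRE match in the promoter shown above, whose receptor is debated, had 12.3, 1.90 and 3.11 CPM in LiKM mice on ACR, against 0.649, 1.07 and 0.549 CPM in LiK mice on ACR. It had 27.0, 18.5 and 6.20 CPM in LiKM mice on the normal diet, against 0.423, 0.283 and 1.17 CPM in LiK mice on the normal diet. The LiKM libraries spread over a wide range, 1.90 to 27.0 CPM, but all 6 were above the highest LiK library. Cxcl14 was higher on the normal diet (log2 4.86 ± 0.87 (SE), 29.1-fold, edgeR adjusted p = 0.00433) and narrowly missed on ACR (log2 2.92 ± 0.84 (SE), edgeR adjusted p = 0.0535), where the block within LiKM gave log2 3.72 and an adjusted p of 0.00572. The ACR difference also passed without LiKM on ACR 2 (0.0431) or LiKM on the normal diet 3 (0.0363).

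Cxcl12 (SDF-1), which liver sinusoidal and stromal cells make without induction, took the most counts of any member, 46.1% to 73.7% of all member counts in a library. It had 287, 289.7 and 273 CPM in LiKM mice on ACR, against 292, 258 and 343 CPM in LiK mice on ACR. It had 306, 363 and 215 CPM in LiKM mice on the normal diet, against 263, 325 and 328 CPM in LiK mice on the normal diet. The strains overlapped on both diets (log2 -0.07 ± 0.18 (SE), edgeR adjusted p = 0.834, on ACR and log2 -0.05 ± 0.18 (SE), edgeR adjusted p = 0.872, on the normal diet), and 2 standard errors either side of these estimates stay within 0.5 on the log2 scale. Cxcr4, its receptor on most leukocytes, had 3.73, 3.53 and 2.07 CPM in LiKM mice on ACR, against 1.95, 1.86 and 2.40 CPM in LiK mice on ACR. It had 4.56, 4.86 and 2.78 CPM in LiKM mice on the normal diet, against 0.704, 1.19 and 0.335 CPM in LiK mice on the normal diet. On the normal diet the lowest LiKM library, at 2.78 CPM, was above the highest LiK library, at 1.19 CPM, whereas on ACR the strains overlapped. Cxcr4 was higher in LiKM on the normal diet (log2 2.39 ± 0.40 (SE), 5.24-fold, edgeR adjusted p = 0.00211), under every alternative tried, and did not pass on ACR (log2 0.58 ± 0.36 (SE), edgeR adjusted p = 0.322). Cxcr5 and Cxcl13, the B cell receptor and ligand pair, were tested and not called, with group means of 0.385 to 0.715 CPM and 0.537 to 1.15 CPM. Xcr1, the receptor of cross-presenting dendritic cells, missed the threshold on ACR (log2 1.45 ± 0.46 (SE), edgeR adjusted p = 0.0646) and on the normal diet (log2 1.29 ± 0.46 (SE), edgeR adjusted p = 0.0655), and its values are not whole in all 12 libraries.

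By class, 7 ligands and 4 receptors were called on ACR and 10 ligands and 8 receptors on the normal diet. In all, 10 members were called on both diets (among them Ackr4, Ccl3, Ccl5, Ccl19, Ccr2, Cx3cl1, Cx3cr1, Cxcl10 and Cxcl16), 8 on the normal diet and not on ACR, and Ccl21a on ACR and not on the normal diet. No member passed a test of the difference between diets, so a call on 1 diet alone does not show that the strain difference differed. Summed over all members, CPM came to 584 ± 43.7 in LiKM and 477 ± 85.4 in LiK on ACR, and to 535 ± 110 in LiKM and 429 ± 32.6 in LiK on the normal diet (mean ± SD, n = 3). Without Cxcl12 the sums were 300.2 ± 47.1 in LiKM and 179 ± 47.6 in LiK on ACR, and 240.2 ± 35.8 in LiKM and 123 ± 6.59 in LiK on the normal diet.

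To compare levels between genes, CPM was divided by the exon length of each gene in kb. Cxcl12 led in both strains on the normal diet, at 36.1 CPM per kb in LiKM against 37.3 CPM per kb in LiK, and Ccl9 followed with 15.7 against 16.6 CPM per kb. The next levels in LiKM were those of Cxcl1 (12.9 against 4.16 CPM per kb), Cxcl14 (9.44 against 0.343), Cxcl9 (8.36 against 2.45), Cxcl16 (7.44 against 2.40) and Ccl5 (6.76 against 0.429). Thus Cxcl14 and Ccl5, below 0.5 CPM per kb in LiK, stood among the leading ligands in LiKM. Receptors were lower: Cxcr4 at 2.25 against 0.411, Cx3cr1 at 1.81 against 0.277 and Ccr2 at 1.57 against 0.342 CPM per kb. Ackr4, at 1.80 against 2.77 CPM per kb, was the highest receptor in LiK.

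**Figure D3:**
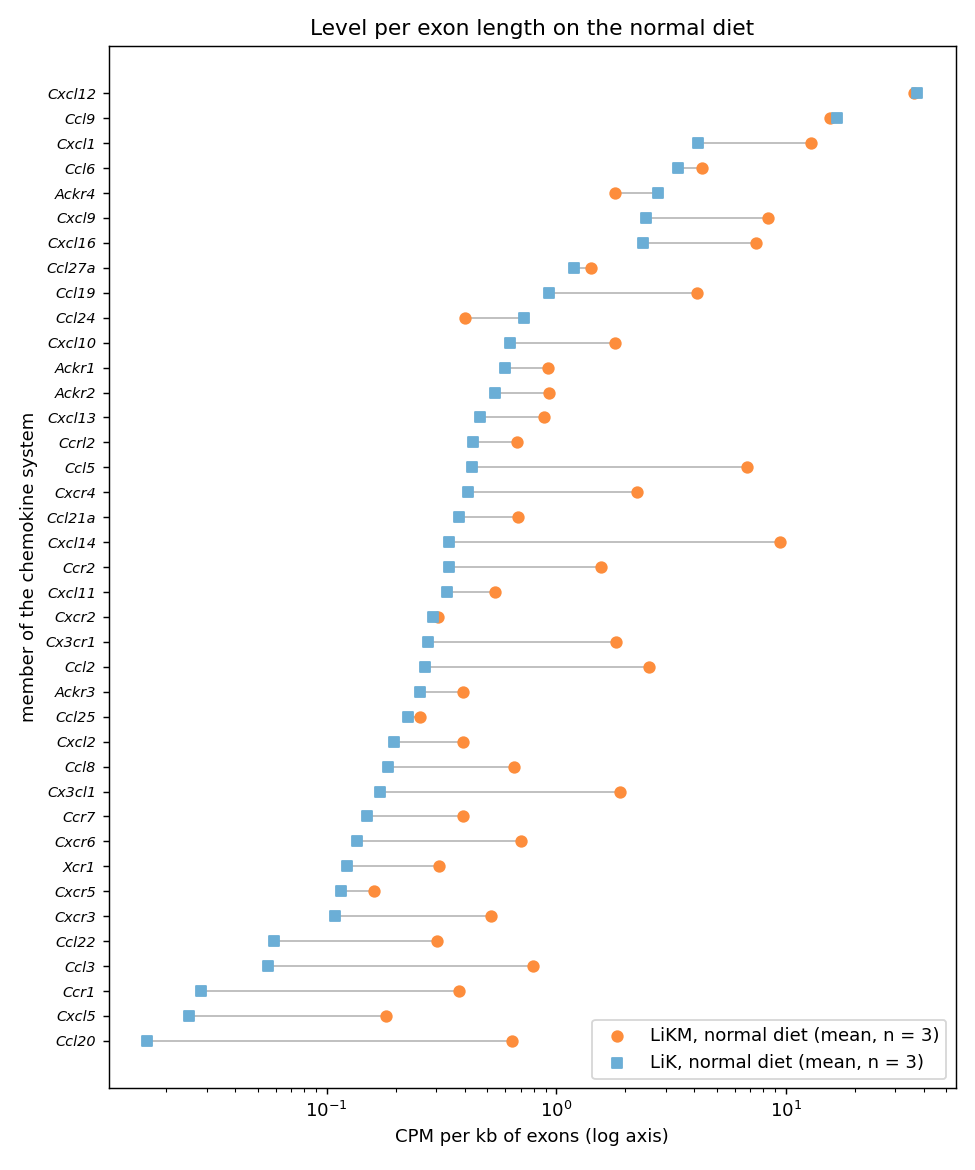
Mean level on the normal diet as CPM per kb of exons (log axis) for 39 of the tested members, in LiKM (circles) and LiK (squares), n = 3 each, ordered by the LiK level. Cxcl12 and Ccl9 are at the top with both symbols together. Cxcl14, Ccl5, Ccl20, Ccl3, Ccr1, Cx3cl1 and Ccl2 have the LiKM symbol far to the right, and Cxcl1 and Cxcl16 less far.

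Many members lie in clusters of neighbouring genes, and not every tested gene of a cluster was called. On chr11:83525778-83664683 (mm10), Ccl5 and Ccl3 were called on both diets while Ccl9 and Ccl6, between them, were not. On chr11:82035571-82116799, Ccl2 was called on the normal diet and its neighbour Ccl8 was not, and Ccl7 and Ccl12 were too rare to be tested. On chr5:92321347-92365485, Cxcl10 was called on both diets and Cxcl9 and Cxcl11 on neither. On chr8:94745590-94812036, Cx3cl1 was called on both diets, Ccl22 on neither, and Ccl17 was not tested. On chr4:41769467-42773993, Ccl19 was called on both diets, Ccl21a on ACR and Ccl27a on neither. Outside clusters, Cxcl14 lies at chr13:56288643-56296551, Cxcl16 at chr11:70453983-70459984, Cxcl12 at chr6:117168535-117181367, Cxcr4 at chr1:128588199-128592293, Cx3cr1 at chr9:119901616-120069879 and Ackr4 at chr9:104084157-104126933. That a neighbour missed the threshold does not show that it differed from the gene that passed.

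Genes that act downstream of chemokine receptors or upstream of the ligands were described from 3 lists. Their counts and medians stand beside 5.55% of all genes higher and 4.24% lower on ACR, 13.2% and 8.61% on the normal diet, and a median log2 fold change of 0.02 over all genes on each diet. Of 29 tested genes of chemokine receptor signalling, 10 were higher and 1 lower in LiKM on ACR, with a median log2 fold change of 0.42, and 17 were higher and 1 lower on the normal diet, with a median of 0.88. Those of smallest p on the normal diet were Rgs2, which shortens G protein signals (12.2 ± 1.84 CPM in LiKM against 2.55 ± 0.252 CPM in LiK, SD, n = 3 each, log2 2.25, edgeR adjusted p = 9.88e-05), Elmo1, which links receptors to Rac (log2 1.73, 0.00152), and Rgs19 (log2 1.58, 0.00152). The genes called lower were Ptk2b, an adhesion kinase, on ACR (log2 -0.41) and Gnai3, an inhibitory G protein subunit, on the normal diet (log2 -0.28). Of 23 tested cytokines, NF-kB and interferon pathway genes known to induce ligands, 3 were higher on ACR (median log2 fold change 0.34) and 9 on the normal diet (median 0.41), and none was lower. They were led on that diet by Ltb, lymphotoxin beta (6.83 ± 1.77 CPM in LiKM against 0.282 ± 0.114 CPM in LiK, log2 4.51, edgeR adjusted p = 0.000187), and the NF-kB subunits Nfkb2 (16.5 ± 2.65 CPM against 5.88 ± 0.644 CPM, log2 1.48, 0.000454) and Relb (6.61 ± 0.851 CPM against 0.672 ± 0.497 CPM, log2 3.21, 0.000607). On ACR the 3 were Ltb (log2 1.97), Irf8 (0.95) and Nfkb1 (0.36). Of 14 tested genes whose products cleave, hold or resemble chemokines, none was called on ACR (median 0.63) and 6 were higher on the normal diet (median 0.91), among them Cd74, the receptor of MIF (log2 2.21), and Hspg2, a heparan sulfate proteoglycan (log2 1.15). No gene of the 3 lists was called between diets.

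The comparison of ACR with the normal diet within each strain gave 0 called members in LiKM, where 0% of all genes were called by edgeR, and 0 in LiK, where 0.13% of all genes were called higher, 0.0648% lower and 0.195% either. At an unadjusted p under 0.05 there were 4 members (10%) in LiKM and 8 (20%) in LiK, beside 7.24% and 14.1% of all genes. DESeq2 called 0 members in LiKM and 2 in LiK, where it called 79 and 397 of all genes. In LiKM the libraries on ACR lay wholly above those on the normal diet for 4 members, Ccl6, Ccl9 and Cxcl10 among them, and wholly below for none, beside 3.93% and 6.73% of all genes. In LiK this held for 11 members above and none below, beside 13.4% and 14.6% of all genes. They were Ccl2, Ccl3, Ccl5, Cxcl1, Cxcl9, Cxcl10, Cxcl11, Ccr1, Cxcr4, Cxcr5 and Ccrl2. Of the 40 estimates 27 were above 0 in LiKM (median log2 0.14) and 31 in LiK (median 0.53), beside medians of -0.01 and 0.01 over all genes.

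In LiK, Cxcr4 had 1.95, 1.86 and 2.40 CPM on ACR, against 0.704, 1.19 and 0.335 CPM on the normal diet (log2 1.41 ± 0.41 (SE), edgeR adjusted p = 0.163). With the block within LiKM it passed (log2 1.40, adjusted p = 0.0449), and so it did with DESeq2 (0.0434). Ccl5 had 0.721, 2.93 and 2.54 CPM on ACR, against 0.423, 0.226 and 0.586 CPM on the normal diet (log2 2.37 ± 0.73 (SE), edgeR adjusted p = 0.191, DESeq2 adjusted p = 0.0149). Ccl2 had 0.937, 1.46 and 1.10 CPM on ACR, against 0.0704, 0.679 and 0.167 CPM on the normal diet (log2 1.80 ± 0.60 (SE), edgeR adjusted p = 0.216). The 3 genes did not overlap between diets and did not pass the main test. Cxcl9 in LiK had 9.95, 18.8 and 54.9 CPM on ACR, against 9.79, 7.02 and 5.36 CPM on the normal diet (log2 1.91 ± 0.66 (SE), edgeR adjusted p = 0.244), with the highest value in LiK on ACR 3, which also had the highest Ptprc of the LiK libraries.

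In LiKM, Ccl6 had 20.2, 17.4 and 12.6 CPM on ACR, against 6.90, 10.6 and 5.65 CPM on the normal diet (log2 1.11 ± 0.34 (SE), edgeR adjusted p = 0.44). Cxcl10 had 6.97, 6.44 and 10.9 CPM on ACR, against 3.30, 4.79 and 4.14 CPM on the normal diet (log2 0.99 ± 0.36 (SE), edgeR adjusted p = 0.527), and the estimate in LiK was log2 1.19 ± 0.40 (SE), edgeR adjusted p = 0.225. It was a member whose libraries on ACR lay above those on the normal diet in both strains. Cxcl14 in LiKM had 12.3, 1.90 and 3.11 CPM on ACR, against 27.0, 18.5 and 6.20 CPM on the normal diet, an estimate below 0 with a wide error (log2 -1.58 ± 0.67 (SE), edgeR adjusted p = 0.65). Kupffer cell markers summed to 328 to 365 CPM on ACR against 106.5 to 240 CPM on the normal diet in LiKM, and to 164 to 341 CPM against 118 to 208 CPM in LiK. In LiKM, biliary markers summed lower on ACR (324 to 512 against 569 to 1004 CPM) and hepatocyte markers higher (122300 to 157300 against 88570 to 98390 CPM). In LiK, NK cell (1.46 to 4.73 against 0.712 to 1.34 CPM) and neutrophil markers (6.53 to 9.66 against 1.82 to 4.54 CPM) summed higher on ACR. So did B and plasma cell markers (7.28 to 10.1 against 3.52 to 4.30 CPM), while red cell markers summed lower (145 to 151 against 158 to 332 CPM). Among the red cell markers Alas2 did not overlap between diets (44.5 to 64.1 against 80.1 to 96.0 CPM), whereas Hba-a1 and Hbb-bs did. Dbp, a clock output gene whose level follows the time of day, was at 3.22 to 15.4 CPM on ACR against 8.46 to 73.9 CPM on the normal diet in LiKM, and at 136 to 139 CPM against 25.6 to 35.9 CPM in LiK. No marker of the cell lists was called between diets in either strain. The part of cell makeup and of clock phase in the diet differences was not tested.

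**Figure D4:**
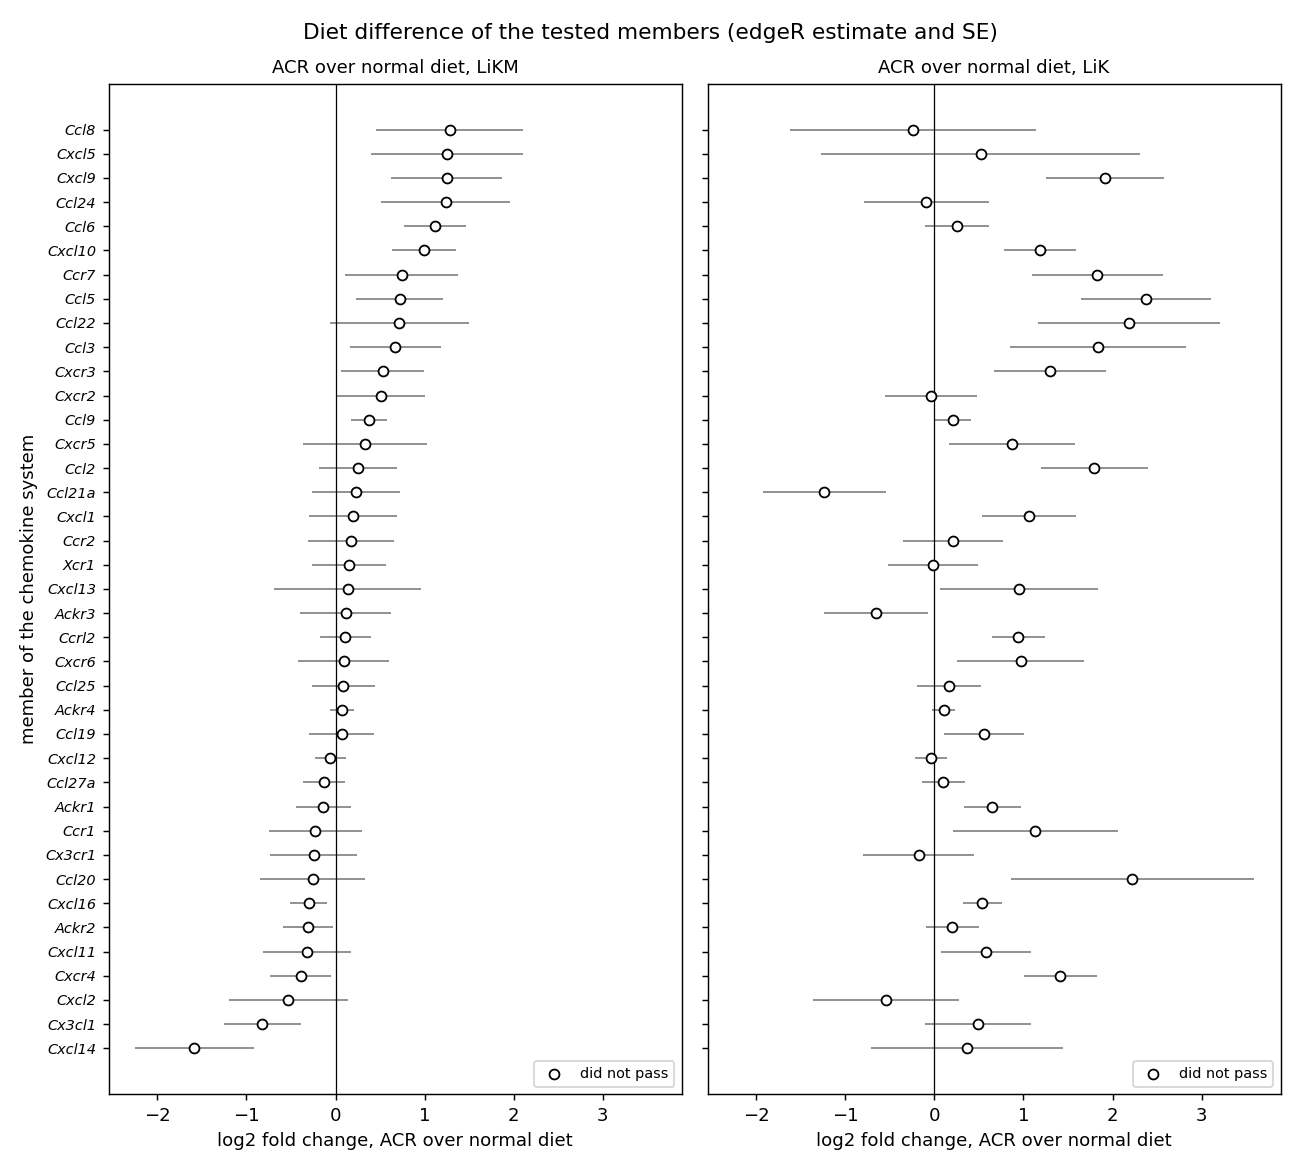
Log2 fold change of ACR over the normal diet for 39 of the tested members in LiKM and in LiK (points, edgeR estimate; bars, standard error; open points did not pass an adjusted p of 0.05). All points are open, with 26 right of 0 in LiKM and 30 in LiK.

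The difference of the diet effects, LiKM minus LiK, was not called for any member by edgeR, where 0.0072% of all genes were called. The median difference was -0.53 on the log2 scale, beside -0.02 over all genes. DESeq2 called 0 members and 160 of all genes. At an unadjusted p under 0.05 there were 2 members (5%), fewer in proportion than the 11.5% of all genes. They were Cxcr4 (log2 -1.81 ± 0.53 (SE), edgeR adjusted p = 0.265) and Cxcl16 (log2 -0.84 ± 0.30 (SE), edgeR adjusted p = 0.34). For Cxcr4 the diet estimate was -0.39 ± 0.34 (SE) in LiKM and 1.41 ± 0.41 in LiK. For Cxcl16 it was -0.30 ± 0.21 in LiKM and 0.54 ± 0.22 in LiK. With 3 mice a group these intervals are wide, and the data do not show whether the strains responded to ACR alike.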

How the data were processed

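RNA from 12 mouse livers was made into stranded mRNA libraries and sequenced, per the labels' protocols. The authors deposited expected counts per gene symbol and library, which need not be whole (18.9% of values above 0 were not, tolerance 1e-09). Counting was done with featureCounts 2.0.0 on mm10, per the submitters' processing notes. The aligner, annotation, strand setting and treatment of shared reads are named in no source used here, so genes with near-identical copies or antisense partners are not separated with certainty. All value columns matched a title. Groups and replicate numbers come from the titles, which name separate mice.

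Expected counts were rounded. R 4.3.3 and edgeR 4.0.16 were used: filterByExpr by group kept 13880 genes, TMM factors were 0.83 to 1.243, and 1 quasi-likelihood fit (robust) held all 12 libraries with a coefficient per group. The common biological coefficient of variation, the spread between mice beyond counting error, was 0.203. P-values were adjusted by Benjamini-Hochberg over the 13880 genes. The threshold was 0.05, and "higher", "lower" and "called" refer to it. SE is the size of the log2 fold change divided by the root of the F statistic. The procedure was also run on simulated counts in which every gene had this same coefficient of variation. That run does not cover genes whose spread differs from it. Replicates differed beyond sampling noise (chi-square divided by its degrees of freedom 15.7 to 65.1). Positions and exon lengths are from GENCODE vM21 on GRCm38 (mm10), where 52 of 53 members matched.

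Members, lists, markers and tests were chosen with earlier results of these data known. Statistics are given for every member past the threshold. Values per library are given for up to 14 of them with the largest change and at least 1 CPM, and for the receptors and ligands of those. Same-numbered LiKM mice of the 2 diets deviated together (correlations of deviations across genes 0.366, 0.217 and 0.485). No label pairs them, so the main fit held no block. The block within LiKM was run as an alternative, on a pairing read from these same data and not established. In the other comparisons the same-number correlations were -0.101 to 0.0768. Alternatives were scaling, DESeq2 1.42.0, no filter, unrounded counts, fewer groups, replicate blocks, identifier prefix and leaving out libraries. Of the members, 1 is counted in the totals and is not reported here.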

Additional observations from a re-analysis of the deposited data

How the results depend on the processing

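The number of members called between strains on the normal diet was 18 and stayed within 1.5 times that under all alternatives run, 13 to 19 when 1 library was left out. On ACR the number was 11. It became 18 with DESeq2, 4 with the identifier prefix as a covariate and 2 when the 3 LiKM libraries set apart by clock genes were left out. That last fit leaves 1 LiKM library on ACR, assumed to vary like the other groups, and the cause of the other changes was not tested. Leaving out 1 library gave 1 to 15 on ACR: 7 without LiKM on ACR 1, 7 without 2 and 6 without 3, and 5 without LiK on ACR 1, 1 without 2 and 6 without 3. Between strains DESeq2 gained the ACR calls of Ccl2 (adjusted p = 0.0121), Ccl6 (0.0123), Ccl20 (0.0468), Cxcl5 (0.0466), Cxcl14 (0.00113), Ccr1 (0.0415) and Xcr1 (0.036). On the normal diet it gained that of Cxcl9 (0.0422). Called members in the diet comparison in LiK numbered 2 with DESeq2 and 1 with the block within LiKM, against 0. Leaving out 1 library gave 0 to 0 called members in both diet comparisons and in the difference of diet effects. The replicate block within LiKM gave 14 called members on the normal diet and 10 on ACR, and a replicate block over all 12 libraries 17 and 11. Calls of reported members that the block within LiKM changed stand beside the results, and it changed no other call of a reported member. Over 29 called values of members, 606 alternative values kept the direction in all cases, 490 past the threshold and 116 not. Of the calls, 11, all on the normal diet, held in every alternative that tested them. Among these, Ccl3 and Ccl20 were too rare to be tested with only the groups of the comparison. The difference of diet effects could not be fitted with only the groups of a comparison. Besides Cxcl1, that setting ended the ACR calls of Ccl19 (adjusted p = 0.0586), Cxcl10 (0.0763) and Ccl21a (0.0785). It also ended the normal diet call of Ccr2 (0.0635). Ccl3, Ccl20, Ccl21a, Ccr1, Cxcr3 and Cxcr6 rest on low counts, with under 2.1 CPM in all libraries.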
